A study of Homo sapiens with 3 samples.

Results

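Cytosolic ribosomal protein genes encode the protein part of the ribosomes that translate nuclear-encoded messages. They were taken by symbol, as RPL or RPS followed by a number with an optional single A or X, plus RPLP0, RPLP1, RPLP2 and RPSA, with pseudogenes, ribosomal S6 kinases and L-suffixed paralogs left out. On the array, 75 such genes had a named probe, of 22431 named genes in all. They comprised 30 genes of the small subunit and 45 of the large subunit, read by 151 probes. RPL10 and RPSA, which the same rule names, were not analysed here.

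The data came from A549 cells, a human lung adenocarcinoma line of epithelial origin, profiled on 3 one-colour Agilent expression arrays. The control cells received 0.1% DMSO, the second culture 60 μg/mL cordycepin (3′-deoxyadenosine, a nucleoside analog made by Cordyceps fungi) and the third 100 μg/mL cordyceps, each for 48 h, and the labels do not say how that cordyceps was prepared. Per the labels, all 3 cultures shared a medium with fetal bovine serum, antibiotics, nicotinamide, troglitazone and zinc sulfate. There was 1 array per condition, so no replicate spread could be measured, no p-value is given, and the precision of every ratio is limited by that number of arrays. The study asked how cordycepin acts on lung cancer cells, and each treatment was therefore set against the DMSO control.

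A cytosolic ribosome needs its proteins in near-equal amounts, a single copy of most of them per particle, and unassembled ribosomal proteins are usually degraded. The messages are among the most abundant in growing cells. Many of them begin with a terminal oligopyrimidine (TOP) element, a cytidine at the cap followed by a run of pyrimidines, through which mTOR signalling controls their translation. RPL5 and RPL11, which carry the 5S ribosomal RNA, are also known to bind MDM2 when ribosome assembly is disturbed.

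The start sequences are shown first because this element is what most of these genes share outside the rule that chose them. In the RefSeq promoter windows of build GRCh38.p14, an element was counted where the listed start was C and began an unbroken run of at least 5 C or T on the strand of the gene, a length chosen with the results known. By that count 46 of 62 ribosomal protein genes with a listed start held it (74.2%), against 5.14% of all genes in the table. Of 10 other genes with a listed start, from a list picked as TOP messages, 9 held it, and of 69 mitochondrial ribosomal protein genes 6 held it. The windows below run from 10 bases before to 20 bases from the start, 5′ to 3′, with the run from the start in capitals. They belong to the genes that held the element among the 5 lowest and the 5 highest ratios of cordycepin over control. A match describes these letters only.
RPL22 (chr1:6199576-6199605, minus strand): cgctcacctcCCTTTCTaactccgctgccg
RPLP0 (chr12:120201092-120201121, minus strand): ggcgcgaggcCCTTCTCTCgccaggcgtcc
RPS12 (chr6:132814559-132814588, plus strand): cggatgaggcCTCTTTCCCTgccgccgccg
RPS3A (chr4:151099618-151099647, plus strand): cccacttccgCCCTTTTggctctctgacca
RPS18 (chr6:33272065-33272094, plus strand): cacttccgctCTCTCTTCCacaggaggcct
RPL38 (chr17:74203668-74203697, plus strand): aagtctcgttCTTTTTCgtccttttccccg
RPL31 (chr2:101002279-101002308, plus strand): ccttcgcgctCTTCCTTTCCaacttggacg
RPL36A (chrX:101391001-101391030, plus strand): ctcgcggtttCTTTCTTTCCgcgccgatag

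The run was 7 bases long in RPL22 and RPS3A, 9 in RPLP0 and 10 in RPS12, which had low ratios. It was 9 bases long in RPS18, 7 in RPL38, and 10 in RPL31 and RPL36A, which had high ratios, so genes of both ends carried runs of the same lengths. With cordycepin the median log2 ratio was -0.08 over the 43 measured ribosomal protein genes with the element and -0.15 over the 16 without it. Among other named genes it was -0.14 for the 757 with the element and -0.05 for the 10562 without it. With cordyceps these medians were 0.001 and -0.004 within the ribosomal protein genes.

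Each gene was read by its brightest probe, as the processed signal of the array, which is a background-subtracted brightness with no unit. For ratios, the log2 signal was scaled by subtracting the 75th percentile of its own array. The genes gave some of the brightest signals on each array. Their median signal was 158228 with DMSO, 125945 with cordycepin and 165482 with cordyceps, where the median over all detected named genes was 599.4, 527.5 and 714.9. Of the 100 brightest named genes, 51 were ribosomal protein genes with DMSO, 47 with cordycepin and 53 with cordyceps. Their share of the summed signal of named genes was 17.7%, 17.6% and 19.0%. No spot was marked as saturated on any array, and whether the signal stays proportional to RNA at this brightness was not tested.

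All genes but RPL27A were detected on the 3 arrays, detection meaning that at least 50% of a probe's spots were well above background. RPL27A, of the large subunit, was read by a single probe with signals of 24.7 with DMSO, 21.6 with cordycepin and 10.0 with cordyceps. That probe was well above background on the control array only, so no fold is given and it stays out of the medians. The next lowest gene, RPL22, had signals of 17571, 10214 and 15038, given here and from here on in the order control, cordycepin, cordyceps. RPS2, a protein of the mRNA entry site, was the highest on every array, at 417234, 373994 and 397806.

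**Figure D1:**
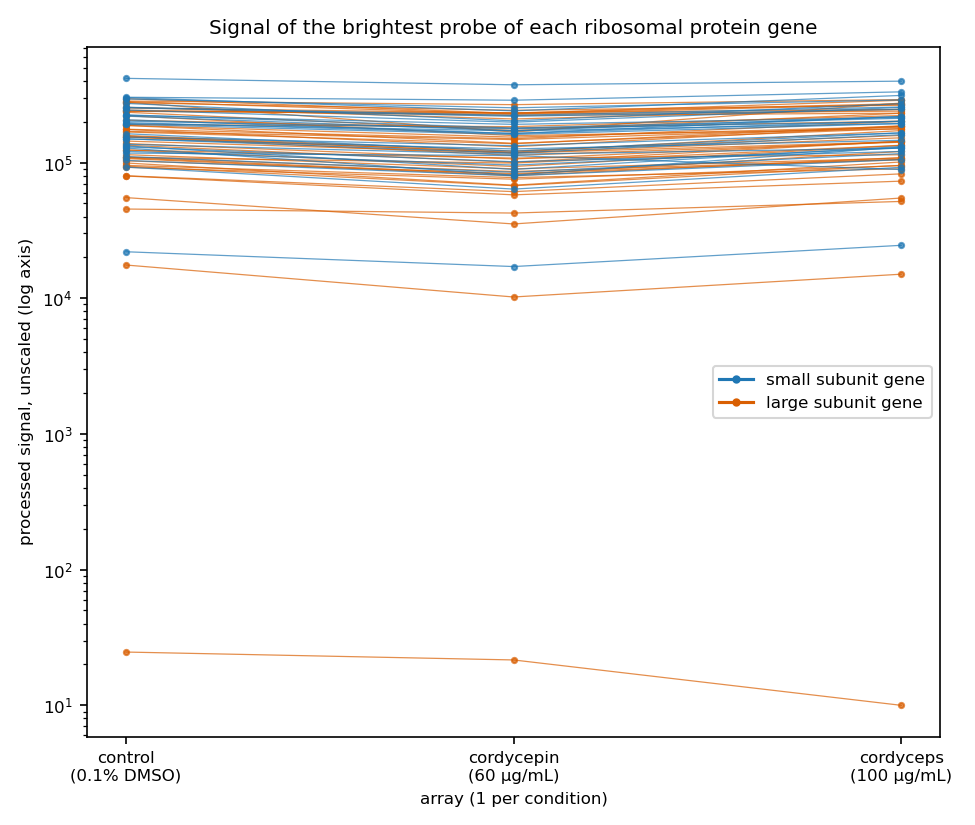
Processed signal of the brightest probe of each of the 75 ribosomal protein genes (log axis, unscaled) on the control, cordycepin and cordyceps arrays, 1 array per condition, with a line joining the values of a gene. All genes but RPL27A lie at signals of 10214 or more, and most lines dip on the cordycepin array, on which the scaling signal was also lower (224.3 against 260.1 and 260.2).

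The line was checked by its markers. KRT8, KRT18, KRT19, EPCAM, CDH1, AKR1B10 and AKR1C1, which mark this epithelial line, were detected on every array. Of 11 markers of other cells or of alveolar surfactant, SFTPA1, SFTPB, CD3E, COL3A1, DCN and PECAM1 were not well above background on any array. PTPRC, CD14 and COL1A1 were detected on every array, and SFTPC and CDH5 on the control and cordycepin arrays. The control signals of PTPRC, CD14, COL1A1, SFTPC and CDH5 were 99.5, 3387, 337.0, 85.0 and 61.3. EPCAM, the dimmest of the line's markers on that array, read 1066, so CD14 was brighter than it. Cells of a type that are fewer and cells that hold less RNA cannot be told apart in such bulk samples. One corner of the arrays (rows above 240 of 384 and columns above 82 of 164) had been marked as a suspected artefact of the cordyceps array, where the cordyceps ratios of all genes had an SD of 0.70 against 0.49 outside it, and 18 of the 75 genes had a spot of their brightest probe there.

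With cordycepin the ribosomal protein genes moved little and close together. Their median log2 ratio to control was -0.11 (0.927-fold) over 74 measured genes, with a range of -0.57 to 0.18, 54 genes below 0 and 20 above. The median of all 14598 named genes measured on both arrays was -0.05, so the ribosomal protein genes lay 0.06 lower on the log2 scale than the named genes as a whole. Their SD was 0.16 against 0.56 for all genes, and 87.8% of them lay within 0.25 of 0, against 44.1% of all genes. None of the 75 was at least 1.5-fold higher or lower, where 13.3% of all tested genes were higher and 11.8% lower by that much. The corresponding shares at 2-fold were 5.95% higher and 3.58% lower. These contrasts were not matched for brightness. Median control signals were 158228 for the ribosomal protein genes and 599.4 for all detected named genes. Whether other genes as bright spread as little was not tested. The size of the median depended on the scaling, from -0.37 to -0.05 over 9 other ways of processing, but it was below 0 and below the median of all genes in each of them.

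**Figure D2:**
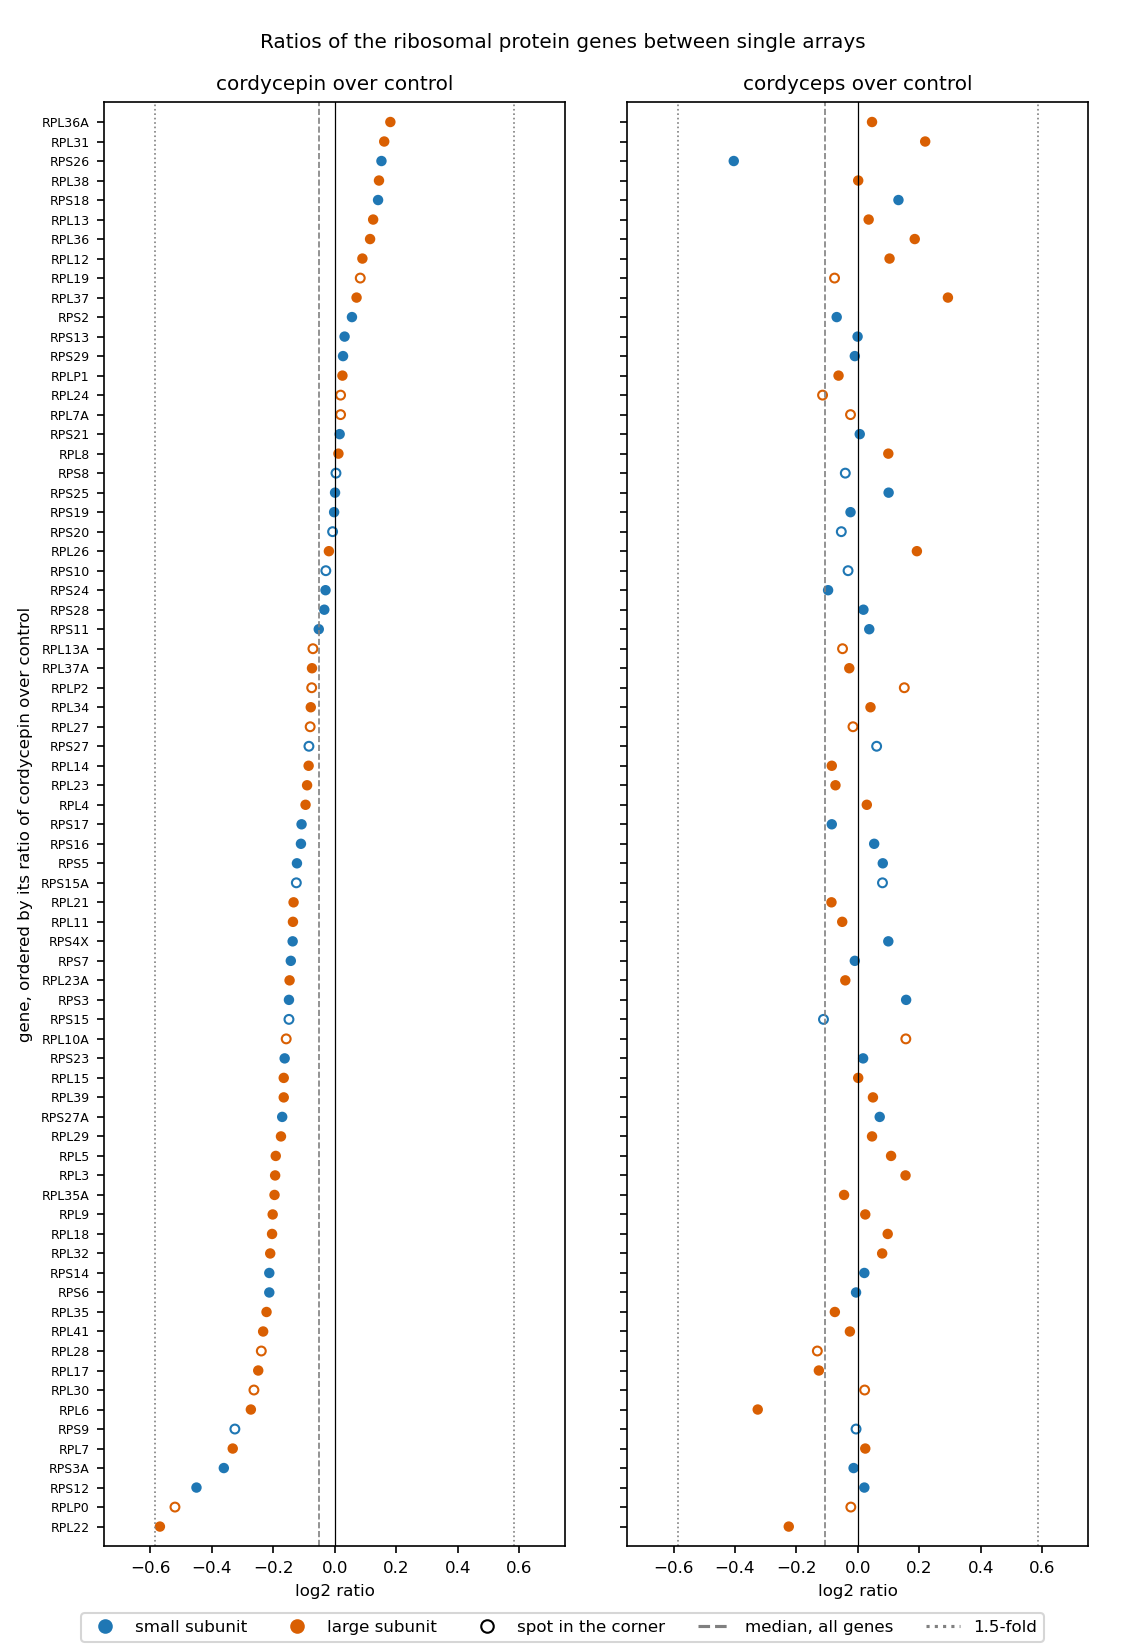
Log2 ratios of measured ribosomal protein genes, cordycepin over control (left) and cordyceps over control (right), both in the order of the left panel, with open circles for genes whose brightest probe has a spot in the corner of the arrays. Each point is a difference between single arrays with no error bar; dashed lines mark the medians of all genes (-0.05 and -0.11) and dotted lines 1.5-fold, which no gene reached.

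The large subunit had a median log2 ratio of -0.14 with cordycepin over 44 genes and the small subunit -0.10 over 30 genes. Both subunits spanned 0, from -0.57 to 0.18 and from -0.45 to 0.15. The proteins at the rim of the peptide exit tunnel had a median log2 ratio of -0.08 over 6 genes, and those at the mRNA entry and decoding side of the small subunit -0.15 over 5 genes. No structural group thus stood far from the -0.11 of all ribosomal protein genes.

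RPL22, a large-subunit protein that also binds small RNAs of the Epstein-Barr virus, had the lowest ratio with cordycepin, -0.57 (1.48-fold lower). A second, dimmer probe of RPL22 read 1403, 661 and 1315, a log2 ratio of -0.87 with cordycepin and -0.09 with cordyceps. Both RPL22 probes were therefore lowest on the cordycepin array.

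RPLP0 forms the base of the ribosomal stalk, which recruits elongation factors. Its signals were 278802, 167658 and 274450, a log2 ratio of -0.52 with cordycepin and -0.02 with cordyceps. This probe lies in the corner of the arrays. The second RPLP0 probe, outside the corner, read 131916, 76990 and 132561, with log2 ratios of -0.56 and 0.01, so both probes gave a lower value on the cordycepin array alone.

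The stalk partners of RPLP0 did not share that ratio. RPLP1 read 276431, 242555 and 264648, a log2 ratio of 0.03 with cordycepin. RPLP2 read 168063, 137585 and 186689, a ratio of -0.07. RPL12, which binds beside RPLP0 on the ribosomal RNA, read 252692, 231956 and 271580, a ratio of 0.09. RPLP0 was thus the only stalk gene beyond 0.25 on the log2 scale with cordycepin.

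RPS12, a protein of the small-subunit head, read 127913, 80722 and 129865, a log2 ratio of -0.45 with cordycepin and 0.02 with cordyceps. RPS3A, which sits near the mRNA exit of the small subunit, read 132568, 88978 and 131329, with ratios of -0.36 and -0.01. In both genes the control and cordyceps values lay close together and the cordycepin value below both. Across the 9 other ways of processing, the cordycepin ratio of RPL22 ranged from -0.83 to -0.44, that of RPLP0 from -0.78 to -0.47, that of RPS12 from -0.71 to -0.37 and that of RPS3A from -0.63 to -0.28.

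At the other end, RPL36A, a protein of the tRNA exit site, read 238380, 232962 and 246226, a log2 ratio of 0.18 with cordycepin. RPL31, at the tunnel rim, read 190665, 183848 and 222040, a ratio of 0.16. The ratio was 0.15 for RPS26, 0.14 for RPL38 and 0.14 for RPS18, whose 3 probes ran from -0.12 to 0.14. The unscaled signal of RPL36A, RPL31, RPS26, RPL38 and RPS18 was lower on the cordycepin array than on the control array, and with the arrays scaled to their medians all 5 ratios fell below 0, from -0.12 to -0.08. These 5 were picked as the highest ratios, so their place above the other ribosomal protein genes follows from that choice. The next gene, RPL13, lay close behind at 0.12. No direction of the 5 held under every scaling.

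The carriers of the 5S ribosomal RNA lay near the median of the ribosomal protein genes. RPL5 read 123863, 93479 and 133587, a log2 ratio of -0.19 with cordycepin and 0.11 with cordyceps. RPL11 read 109416, 85855 and 105676, with ratios of -0.14 and -0.05. RPS27A, made as a fusion with ubiquitin, read 110763, 84836 and 116403, with ratios of -0.17 and 0.07. RPS6, the small-subunit protein phosphorylated by S6 kinases, read 272723, 202831 and 271607, with ratios of -0.21 and -0.01; it was named after its values were seen.

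Several genes were read by more than 1 probe, which allowed their ratios to be compared within a gene. Of the 42 genes with at least 2 probes detected on every array, all probes lay below 0 with cordycepin in 26, all above in 5 and on both sides in 11. Between the 2 brightest probes of a gene, the SD of a single probe's ratio was 0.21 for ribosomal protein genes and 0.35 for the 3356 such named genes, and this is a spread between probes, not between cultures. Most ribosomal protein ratios with cordycepin were smaller than that spread between probes. Some pairs behind it hold a far dimmer second probe, as in RPS24 (136325 and 65.6 on the control array). It is therefore not the error of the brightest probes alone.

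RPL21 was read by 9 probes, whose control signals ran from 9801 to 114322. All 9 were below 0 with cordycepin, from -0.62 to -0.13, and all 9 with cordyceps, from -0.44 to -0.09. RPS3A was read by 6 probes, all below 0 with cordycepin, from -0.52 to -0.29, and between -0.08 and 0.04 with cordyceps. RPL5 was read by 4 probes, from -0.57 to -0.19 with cordycepin and from 0.02 to 0.15 with cordyceps. RPL17, a tunnel protein, was read by 3 probes, from -0.57 to -0.25 and from -0.32 to -0.13. RPL21 and RPL17 were thus below the control on both treated arrays by every probe, while with cordyceps the RPS3A probes lay on both sides of 0 and the RPL5 probes above it. Scaling to array medians raises every cordyceps ratio, with a ribosomal protein median of 0.27, and the smaller cordyceps ratios of RPL21 and RPL17 then lie above 0.

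RPL30 was read by 1 probe printed on 10 spots, the only direct view of spot error. Its spot signals ran from 88604 to 100491 with DMSO (9 usable spots), from 66058 to 68544 with cordycepin (6 spots) and from 92247 to 97916 with cordyceps (9 spots). The spots of the cordycepin array did not overlap those of the other arrays before scaling. The log2 SD between spots was 0.06, 0.02 and 0.03, and the scaled log2 ratio was -0.26 with cordycepin and 0.02 with cordyceps. Spots of 1 array share an RNA sample, so this spread holds no difference between cultures.

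Across the probes of all these genes, dimmer ones gave lower ratios with cordycepin. Within genes this was weak: the second-brightest probe was lower than the brightest in 24 of 42 genes (57.1%), with a median difference of -0.03. Over all 147 probes of ribosomal protein genes detected on every array, 114 lay below 0 with cordycepin and 33 above, with a median of -0.16. Among 35 probes with a control signal under 50000, a limit set with the values in view, the median was -0.41 and 30 lay below 0. Those 35 probes belonged to 24 genes. Among the 112 brighter probes it was -0.12. Over the 147 probes, Spearman's rho between the cordycepin ratio and the mean log2 signal of the 3 arrays was 0.54, a description only, since probes share genes and the same arrays enter both axes. With cordyceps rho was 0.17, and the medians of the dim and bright probes were -0.04 and 0.01.

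At the same signal, probes of other named genes did not show such low values with cordycepin. For control signals from 10000 to 50000, the median was -0.39 over 22 ribosomal protein probes and -0.13 over 1034 probes of other genes. Probes of the same gene were counted separately, and several of the 22 belonged to RPL21. From 50000 to 100000 it was -0.26 over 28 and -0.13 over 137 probes. At 100000 or more it was -0.08 over 84 and -0.03 over 86 probes, so the gap with cordycepin narrowed at the brightest signals. With cordyceps the medians in the same ranges were 0.02, 0.01 and 0.01 for the ribosomal protein probes. For probes of other genes they were -0.21, -0.24 and -0.16. Probe sequences were not used here, and whether dim probes read the main transcript, a variant, a pseudogene or a readthrough transcript was not tested.

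**Figure D3:**
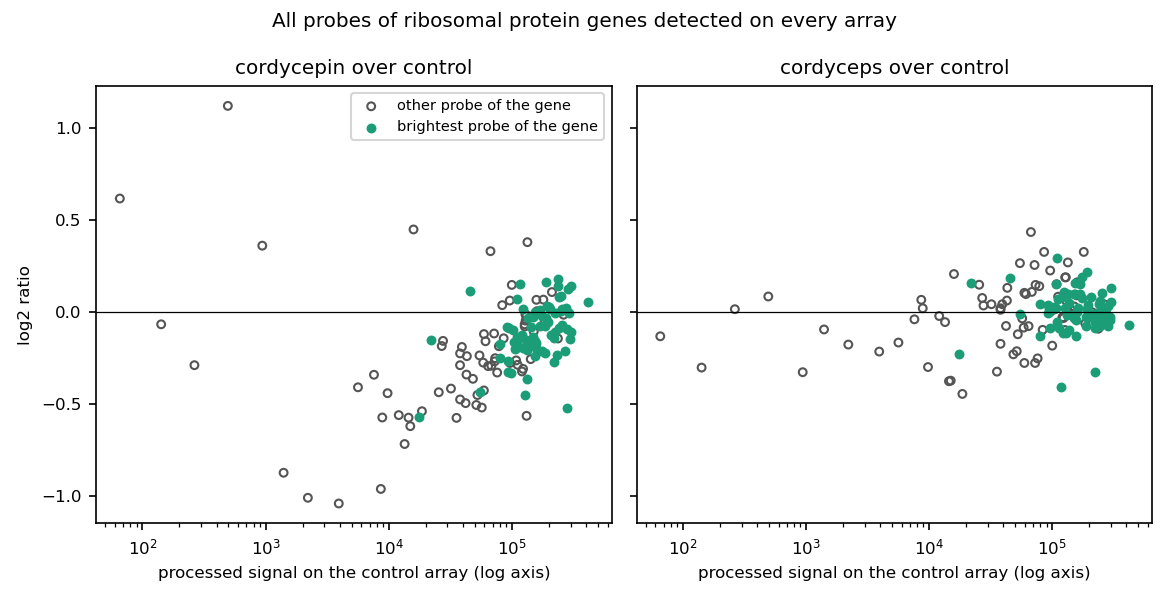
Log2 ratio (y) against the processed signal on the control array (x, log axis) for the 147 probes of ribosomal protein genes detected on every array, cordycepin over control (left) and cordyceps over control (right), filled for the brightest probe of a gene. With cordycepin, probes under a signal of 50000 lie lower (median -0.41) than brighter ones (median -0.12), and with cordyceps both lie near 0 (-0.04 and 0.01).

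A few genes held probes that disagreed. RPS23, a protein of the decoding centre, had a log2 ratio of -0.16 with cordycepin by its brightest probe and -1.04 by a dimmer one, which read 3937, 1652 and 3395. RPL15 had -0.17 and -0.96, the dimmer probe reading 8646, 3832 and 9058. RPL13 had 0.12 and -0.45. RPL7 had -0.33, 0.33 and -0.56 by 3 probes. In RPS23 and RPL15 the dimmer probe was the lower, and RPL7 had no common direction.

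Some of the disagreeing probes were designed on alternative transcripts. In RPL28 the main probe read 154620, 112923 and 141158, a log2 ratio of -0.24 with cordycepin. A probe of a variant transcript read 494.5, 926.5 and 524.9, a ratio of 1.12, and another variant probe read 13482, 7075 and 12994, a ratio of -0.72. In RPS29 the main probe had a ratio of 0.03, and a probe of a variant transcript, which read 2208, 947 and 1956, had -1.01. In RPS24 a variant probe read 65.6, 86.7 and 59.9, a ratio of 0.62 beside -0.03 for the main probe. Of all 147 probes, 2 were at least 2-fold lower with cordycepin and 1 at least 2-fold higher, namely those of RPS23, RPS29 and RPL28 given here, and at 1.5-fold the counts were 6 and 2. Of all 17913 probes of named genes detected on every array, 3.13% were at least 2-fold lower and 3.28% higher, and at 1.5-fold 11.6% and 9.72%.

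With cordyceps the ribosomal protein genes stayed near the control level. Their median log2 ratio was 0.00 over 74 genes (0.27 with the arrays scaled to their medians), with a range of -0.40 to 0.29, 38 genes above 0 and 36 below. The median of all genes was -0.11, so the ribosomal protein genes lay 0.11 higher on the log2 scale than the named genes as a whole, a sign that held under the 9 other ways of processing (0.07 to 0.12). Their SD was 0.11 against 0.54, and 95.9% of them lay within 0.25 of 0, against 45.8% of all genes. None was at least 1.5-fold higher or lower, where 8.3% of all tested genes were higher and 12.5% lower. At 2-fold the shares of all tested genes were 4.19% and 3.15%. As with cordycepin, these contrasts with all genes were not matched for brightness.

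The corner of the array made little difference to these genes. Outside it, 57 ribosomal protein genes had a median of 0.02 with cordyceps, 33 above 0 and 24 below, and again none reached 1.5-fold, where 6.87% of all tested genes outside the corner were higher and 12.4% lower. In the corner, 17 measured genes had a median of -0.02 and a range of -0.13 to 0.16. Their SD was 0.08 there, against 0.70 for all genes in the corner, a contrast not matched for brightness. The small and the large subunit both had a median of 0.00 with cordyceps over the whole array.

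The lowest and highest ratios are given for genes outside the corner. RPS26, a protein of the mRNA exit channel, had the lowest ratio with cordyceps, -0.40, from signals of 117418, 112504 and 88803. A dimmer RPS26 probe read 15927, 18751 and 18386, a log2 ratio of 0.21 with cordyceps, so the 2 detected probes of RPS26 disagreed in direction. RPL6, a surface protein of the large subunit, read 221374, 157933 and 176700, a ratio of -0.33 with cordyceps and -0.27 with cordycepin. Its second probe read 72647, 52044 and 60027, with ratios of -0.28 and -0.27, so both RPL6 probes lay below the control on both treated arrays. Outside the corner RPL22 followed with -0.23, RPL17 with -0.13 and RPS24 with -0.10, the latter within the SD of 0.11 of these genes. With the arrays scaled to their medians, the cordyceps ratios of RPL22, RPL17 and RPS24 were above 0, while those of RPL6 remained below 0 under each way of processing (-0.33 to -0.06).

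The highest ratios with cordyceps outside the corner belonged to 5 genes. RPL37, a large-subunit protein, read 109361, 99056 and 134087, a log2 ratio of 0.29, while a far dimmer RPL37 probe, which read 142.1, 117.0 and 115.4, gave -0.30. RPL31 followed with 0.22, and its second probe, which read 134009, 150392 and 161681, gave 0.27. The ratio was 0.19 for RPL26, at the tunnel rim, but its second probe, which has a spot in the corner and read 100068, 95631 and 88219, gave -0.18. RPL36 had a ratio of 0.19. The probes of RPL37 and of RPL26 thus disagreed in direction with cordyceps. RPS3, which lines the mRNA entry and is known in DNA repair, read 22009, 17119 and 24547, a ratio of 0.16. Both RPL31 probes lay above the control on both treated arrays, though the cordycepin ratio of the brighter one was -0.10 when arrays were scaled to their medians.

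Set directly against each other, the cordycepin array gave lower values than the cordyceps array for most ribosomal protein genes. The median log2 ratio of cordycepin over cordyceps was -0.11 over 74 genes, 55 below 0 and 19 above, while the median of all genes was 0.02. RPLP0 was the lowest at -0.50 and RPS12 came next at -0.47. RPS26 was the highest at 0.56. The comparisons with control share the control array, so their values stand side by side and are not independent of each other.

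Other genes of the translation apparatus were set beside them, by their brightest probes. Of the ribosomal proteins with other names, FAU, a ubiquitin-like fusion that yields a small-subunit protein, read 110007, 109715 and 125778, with log2 ratios of 0.21 with cordycepin and 0.19 with cordyceps. RACK1, a scaffold on the small-subunit head, read 36707, 22690 and 37552, with ratios of -0.48 and 0.03. RACK1 thus lay with RPLP0 and RPS12 on the cordycepin array, and FAU above the ribosomal protein median on both.

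Mitochondrial ribosomal protein genes, which serve translation inside mitochondria, had a median log2 ratio of -0.12 with cordycepin and -0.12 with cordyceps over 77 genes. Their spread was wider than that of the cytosolic genes, with SDs of 0.24 and 0.25 against 0.16 and 0.11. This contrast was not matched for brightness. The brightest mitochondrial gene, MRPS16, read 71904 on the control array, where the median of the cytosolic genes was 158228. With cordycepin 2 of the 77 were at least 1.5-fold lower and none higher, below the shares of all genes (11.8% and 13.3%), and with cordyceps 2 were lower and 2 higher, also below those shares (12.5% and 8.3%).

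A list picked as TOP messages other than ribosomal proteins, mostly elongation and initiation factors, held 16 genes. Of its 10 genes with a listed start, 9 held the element, and the others were not checked. The median log2 ratio of the 16 was -0.37 with cordycepin, the lowest among the lists of translation and ribosome genes. Of the 16, 15 lay below 0. With cordyceps the median of the 16 was 0.06. HNRNPA1, an RNA-binding protein of splicing, read 48354, 22148 and 52688, a log2 ratio of -0.91 with cordycepin and 0.12 with cordyceps. EIF3L, EIF3E and EEF1D, subunits of initiation and elongation factors, had ratios of -0.59, -0.57 and -0.50 with cordycepin. HNRNPA1 and EIF3L were the 2 genes of the 16 at least 1.5-fold lower, a share near the 11.8% of all genes, and EIF3H, at 0.05, was the only one above 0. EEF1A1, the most abundant elongation factor, read 206423, 158658 and 225202, with ratios of -0.17 and 0.12, close to the ribosomal protein genes.

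**Figure D4:**
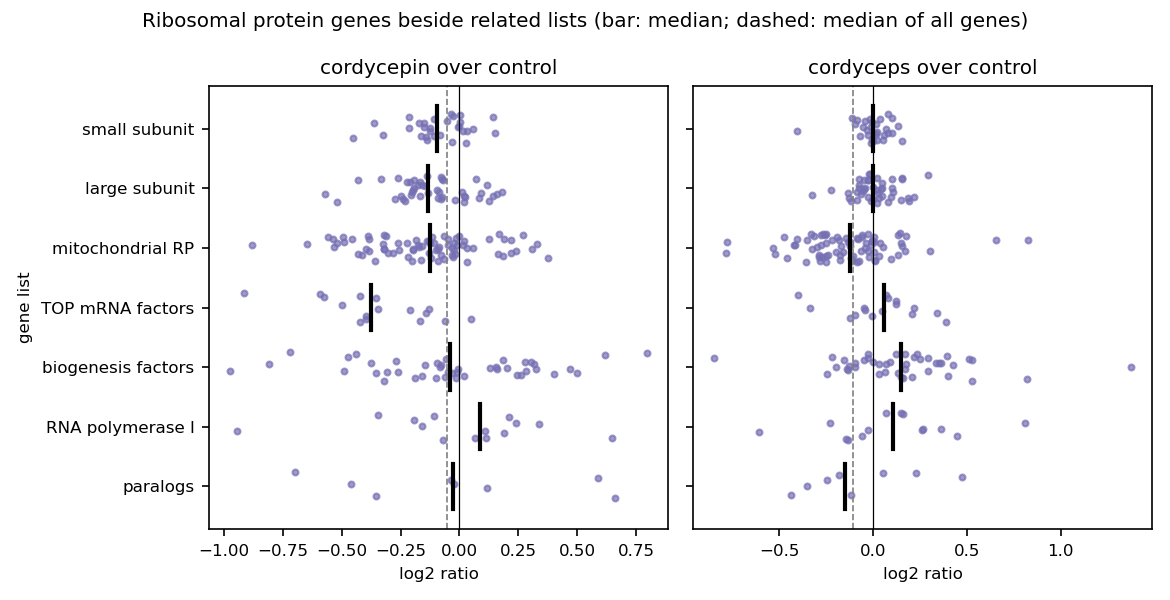
Log2 ratios of the genes of each list (points, brightest probe each) with the list median (bar), cordycepin over control (left) and cordyceps over control (right); the dashed line is the median of all genes. The subunits form the narrowest bands, though the lists were not matched for brightness. The list picked as TOP messages outside the ribosomal proteins lies lowest with cordycepin (median -0.37).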

How the data were processed

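The authors hybridized Cy3-labelled cRNA to 1 Agilent array per condition and deposited the scanner output, in which each spot has a processed signal intensity (background-subtracted by Feature Extraction 11.5.1.1, per the file headers), and a table of the same intensity values that matched the scanner values but for 8 or 9 probes per array (over 0.1% apart); its column medians were 20.3, 21.1 and 16.9 in the order control, cordycepin, cordyceps, so its scale is linear and no centring between arrays was found. The study's methods name a second dye, which the files do not hold.

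Log2 intensity was taken after control and outlier spots were left out, spots of a probe were averaged, and each array's 75th percentile over 58191 probes was subtracted (Python 3.11.15, numpy 2.4.6, pandas 2.3.3, scipy 1.17.1; limma 3.58.1 in R 4.3.3 for normexp with an offset of 50). Symbols came from RefSeq accessions, which named 31100 probes. The brightest probe, by its mean over 3 arrays, stood for a gene. A gene detected on 1 array of a pair entered the 1.5-fold and 2-fold counts by its bound: the lowest well-above-background signal on the dim array, or the dim signal itself where that is higher. Counting was tested on simulated data.

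The members and lists were chosen with earlier results of these data known. Named genes were the 5 highest and 5 lowest ratios of each treatment (cordyceps outside the corner), any 2-fold change, the stalk, 5S and ubiquitin-fusion genes, the 5 genes whose 2 brightest probes differed most, and, of related lists, paralogs and 2-fold changes; other names were chosen after their values were seen. The values of 2 genes under this rule and the lists are not reported here, though they stay in the counts and medians. With 1 array per condition nothing was tested. The 9 alternatives were median scaling, a percentile over detected probes, quantile normalization, no scaling, normexp, outlier spots kept, the deposited table, the median over a gene's probes, and the corner left out. An alternative counts as moving a median or a gene's ratio when the shift exceeds the single-probe SD of the ribosomal protein genes (0.214, 0.143 and 0.233 for the 3 comparisons), a limit tightened after the values were seen.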

Additional observations from a re-analysis of the deposited data

How the results depend on the processing

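Scaling moved the values most. On the control, cordycepin and cordyceps arrays, 28494, 27666 and 24505 of 58191 probes were detected. The median of an array thus lies near or below the limit of detection, and median scaling aligns the arrays at that level. With the arrays scaled to their medians, the median log2 ratio of the ribosomal protein genes was -0.37 with cordycepin, 0.27 with cordyceps and -0.65 for cordycepin over cordyceps, where the medians of all genes were -0.32, 0.16 and -0.51. Relative to all genes, the ribosomal protein genes stayed lower with cordycepin (-0.14 to -0.03) and higher with cordyceps (0.07 to 0.12) under the 9 alternatives. The number of genes at least 1.5-fold lower with cordycepin, 0 as reported, was 7 of 75 under median scaling, 4 with no scaling and 3 when a gene was the median of its detected probes, while 25.5%, 22.0% and 11.7% of all genes were lower by that much, so these counts are below the background. With the median over probes, RPS26 had a log2 ratio of 0.21 with cordyceps and RPL7 0.23 with cordycepin. Of 58 results, single-gene ratios among them, 54 counted as moved under median scaling, 11 with the median over probes and 2 under quantile normalization. Median scaling shifts all ratios of a comparison by the same amount, so its count is not a gene-specific effect. No paired analysis was possible because each condition had 1 array. Near-identical pseudogenes and copies of these genes may share probes, which was not tested, and detection over background limited only RPL27A.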

Other observations

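The L-suffixed paralogs, near copies of ribosomal protein genes that are often tissue-restricted, spread more widely than the ribosomal protein genes. That contrast rests on 8 paralogs, several of them far dimmer, and was not matched for brightness. With cordycepin RPL39L read 910.5, 1241 and 804.9 (control, cordycepin, cordyceps), a log2 ratio of 0.66, and RPS27L, a known p53 target, read 61344, 79502 and 48187, a ratio of 0.59. Both have their spot in the corner of the arrays. RPL3L, the striated-muscle form of RPL3, read 104.6, 55.6 and 88.3, a ratio of -0.70, and RPL10L, a near-identical retrogene of RPL10, read 57159, 35837 and 66939, a ratio of -0.46; whether the RPL10L probe reads RPL10 was not tested. RPL7L1 had -0.36, RPL36AL -0.03, RPL22L1 -0.02 and RPL26L1 0.12. With cordyceps RPL22L1 was the highest of the 8 (0.47, from 25482 to 35376) and RPL26L1 the lowest (-0.44, from 9210 to 6803).

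Genes that build ribosomes had list medians near 0 with cordycepin and above 0 with cordyceps. The 44 biogenesis factors had a median log2 ratio of -0.04 and 0.15, with 2 at least 1.5-fold higher and 3 lower with cordycepin, and 2 higher and 1 lower with cordyceps, all below the shares of all genes (13.3% higher and 11.8% lower with cordycepin, 8.3% and 12.5% with cordyceps). DDX10, a nucleolar helicase, read 4788, 5175 and 12427, ratios of 0.33 and 1.38. The 14 RNA polymerase I genes had medians of 0.09 and 0.11, with 8 above 0 and 6 below in each comparison. Among them UBTF, which activates ribosomal DNA, read 454.4, 203.5 and 298.9, ratios of -0.95 and -0.60, and the subunit gene POLR1F read 342.8, 463.6 and 600.4, ratios of 0.65 and 0.81. UBTF and POLR1F were named after their values were seen.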
